A study of Rattus norvegicus with 8 samples.

Results

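Mitochondria make most of the ATP of a liver cell. Electrons from NADH and succinate enter the respiratory chain at complexes I and II, pass through coenzyme Q, complex III, cytochrome c and complex IV to oxygen, and the proton gradient built on the way drives ATP synthase. Electrons from fatty acid oxidation join through the electron transfer flavoprotein, and in hepatocytes the matrix also holds enzymes of gluconeogenesis, ketone body and urea formation. Nearly all of these proteins are encoded in the nucleus and imported, while a few core subunits are made inside the organelle by its own ribosomes.

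The genes described here were taken from the authors' deposited table of liver transcripts that differ between diets. A gene was included if its description mentions mitochondria or if its symbol begins with Nduf, Cox and a digit, Uqcr, Atp5, Timm, Tomm, Mrpl, Mrps, Acad or Etf; solute carriers, Mthfd and Sirt genes and the amidoxime reducing components were left out. By this rule 28 of the 2462 genes in the authors' deposited table were members, 11 through the description alone, 12 through the symbol alone and 5 through both. The exclusions removed 2 genes, the mitochondrial amidoxime reducing components 1 and 2. The compared livers came from wild-type Fischer 344 rats aged 1 year, an inbred strain: 4 rats on the choline-deficient amino acid-defined diet (CDAA), under which hepatocellular carcinoma arose, and 4 on the choline-sufficient counterpart (CSAA), the healthy diet. The labels describe no transgene and no treatment other than diet, both diets being amino acid-defined, and do not state whether tumour nodules or surrounding tissue were sampled. The series asked how the liver transcriptome differs between carcinoma-bearing rats and rats on the healthy diet.

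The authors' deposited table holds group comparisons only, so levels are given as 1 value per diet group, in FPKM, a read-pair tally corrected for the length of the transcript and the size of the library, with no spread between rats. Differences are the DESeq2 log2 fold change, CDAA over CSAA, with the standard error (SE) of that model over 4 rats per group. Every gene in the authors' deposited table passed a threshold of 0.01 after adjustment in each of DESeq2, edgeR and Cufflinks, so direction and size can be described but a further test on the same contrast would be circular. A gene outside it is not shown to be stable. Comparing mean normalised counts with mean CPM in the authors' deposited table put a typical library at about 14.1 M (mega) counted reads; the depth of each rat's library is unknown.

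Of the 28 mitochondrial genes, 27 were lower and 1, Pck2, was higher in CDAA livers in the authors' deposited table. Of all genes there, 42.9% were lower and 57.1% higher in CDAA, so the 96.4% of mitochondrial genes that were lower stand above that background. The background depended on abundance. When the better-expressed diet group had to reach 5 FPKM, 62.6% of 1528 genes were lower in CDAA in the authors' deposited table, and all 28 mitochondrial genes are among those 1528. At 50 FPKM it was 88.4% of 545 genes, and 21 of the 21 mitochondrial genes at that level were lower in the authors' deposited table. Against this last background the share of lower genes among those 21 is near that of other abundant transcripts and is not a result about mitochondrial genes. The remaining members were under 50 FPKM in both diet groups, and of them Pck2 alone was higher. Of all 1917 genes of the authors' deposited table under 50 FPKM in both groups, 70.1% were higher. Whether these few members differ from that share was not tested.

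**Figure D1:**
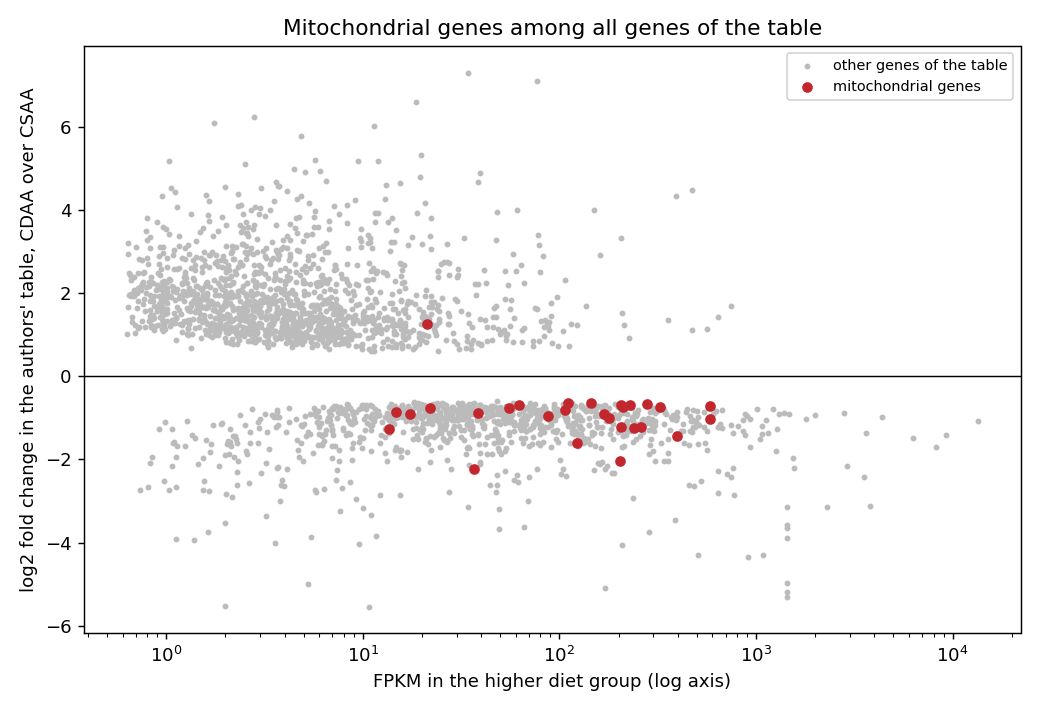
Each point is 1 gene of the authors' deposited table, with the FPKM of its better-expressed diet group on a log axis (horizontal) and the DESeq2 log2 fold change, CDAA over CSAA (vertical); the 28 mitochondrial genes are red and all others grey. The red points lie in the abundant right-hand part, 27 of them below 0 and 18 of those between -1 and 0.

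The falls were shallow. The median log2 fold change of the 27 lower mitochondrial genes was -0.87, against -1.09 for the other 1028 lower genes in the authors' deposited table. In linear terms the median was 54.7% of the CSAA level for the mitochondrial genes and 47.1% for the other lower genes, from the same column of the authors' deposited table. A fall of at least 2-fold was recorded for 9 of the 27, or 33.3%, and for 58.7% of the other lower genes in the authors' deposited table. Over all genes of the authors' deposited table, 24.9% fell and 50.2% rose by at least 2-fold. The median level of the 27 was 82.7 FPKM in CDAA and 169 FPKM in CSAA livers, and that of the other lower genes was 17.2 FPKM in CDAA and 40.4 FPKM in CSAA livers, in the authors' deposited table. With abundance held to at least 50 FPKM the medians were -0.82 for the mitochondrial and -1.10 for the other lower genes of the authors' deposited table. Genes with log2 changes smaller than 0.60 in size do not occur in the authors' deposited table, so milder falls of other mitochondrial genes would not be seen there.

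**Figure D2:**
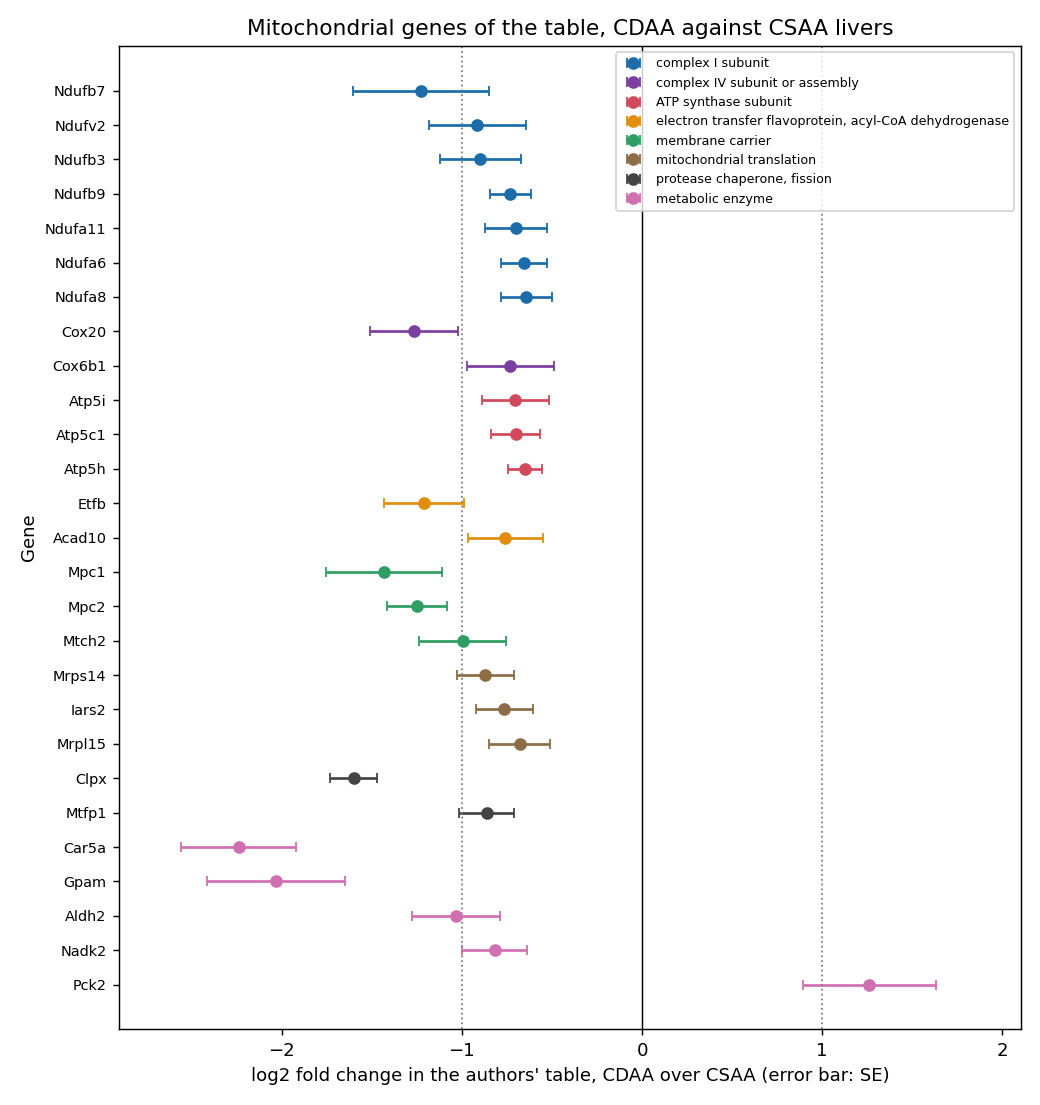
DESeq2 log2 fold change, CDAA over CSAA, of 27 of the mitochondrial genes (rows, grouped and coloured by function), with error bars of 1 SE and dotted lines at a 2-fold change. All rows except Pck2 (1.26) lie below 0, the respiratory chain and ATP synthase subunits mostly between -0.91 and -0.64.

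The promoters of the RefSeq table (GRCr8, 250 bases before to 50 after the start of each gene) were searched for 7 motifs of factors known to act on mitochondrial genes, on both strands. A promoter was held for 21 of the 28 members and was not used here for 7, among them Ndufa8, Atp5h, Mrpl15, Ndufb9, Aldh2 and Clpx. The core of the nuclear respiratory factor 1 site, CGCANGCG, was present in 9 of 21 member promoters (42.9%), in 10.3% of 789 promoters of other lower genes, in 7.64% of 1047 promoters of other higher genes and in 8.23% of all 27457 promoters. The median GC content was 60.0% in member promoters, 59.7% in those of other lower genes and 52.3% over all promoters. The ETS core CCGGAAGT, which GABPA binds, occurred in 3 of 21 member promoters (14.3%) and in 4.01% of all promoters, and the YY1 core AAGATGG in 4 (19.0%) and 7.30%. Among those 4 is the promoter of the RefSeq gene Cox6b1, which is not the promoter of the locus that carries this name in the authors' deposited table. The E-box CACGTG, which MYC and other factors bind, and the ATF4 composite element TGATGNAA were each in 2 of 21, and in 6.65% and 3.82% of all promoters. The half-site AAGGTCA of estrogen-related receptors and the cyclic AMP element TGACGTCA were in 0 of 21, and in 4.37% and 1.91% of all promoters. These are matches of letters, not sites shown to be bound, and no test was run on them. Promoters of mitochondrial genes outside the authors' deposited table were not counted as a group. Whether the shares differ between mitochondrial genes in it and those outside it was therefore not tested.

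The following stretches are 100 bases long and lie around the nuclear respiratory factor 1 core in the promoters of the 5 respiratory chain and ATP synthase members that hold it, and around the ATF4 element in that of Pck2, the only riser, read 5′ to 3′ on the gene's strand, with the matched letters in capitals. The Ndufa6 stretch (chr7:115750285-115750384, minus strand, GRCr8) covers bases -67 to 33 counted from the gene's start, and in it the YY1 core begins at base 16, in lower case.
Ndufa6: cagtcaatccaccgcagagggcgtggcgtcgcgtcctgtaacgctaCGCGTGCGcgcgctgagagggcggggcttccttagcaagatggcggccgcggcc
The Ndufa11 stretch (chr9:1637475-1637574, plus strand, GRCr8) holds 2 overlapping matches.
Ndufa11: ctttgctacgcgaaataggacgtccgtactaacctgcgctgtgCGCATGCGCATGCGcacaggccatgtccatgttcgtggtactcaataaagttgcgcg
The Atp5c1 stretch (chr17:73333632-73333731, plus strand, GRCr8) has its match across the start, with its first letter at base -7.
Atp5c1: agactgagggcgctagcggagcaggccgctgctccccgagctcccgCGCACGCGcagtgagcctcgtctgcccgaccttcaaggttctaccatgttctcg
The Atp5i stretch (chr14:1464739-1464838, plus strand, GRCr8) has its match at base -75.
Atp5i: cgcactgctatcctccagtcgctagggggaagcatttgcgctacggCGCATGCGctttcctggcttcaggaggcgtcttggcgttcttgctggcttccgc
The Cox20 stretch (chr13:92599909-92600008, plus strand, GRCr8) has its match at base 2, after the start.
Cox20: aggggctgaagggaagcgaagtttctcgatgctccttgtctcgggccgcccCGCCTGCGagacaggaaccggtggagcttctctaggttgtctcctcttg
The Pck2 stretch (chr15:32997603-32997702, plus strand, GRCr8) covers bases -250 to -151, with the element on the opposite strand at base -239.
Pck2: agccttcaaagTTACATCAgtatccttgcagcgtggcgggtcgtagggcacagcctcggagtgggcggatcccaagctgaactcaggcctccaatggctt
Besides Pck2, the ATF4 element was in the promoter of Gpam, at base -122, and Gpam was lower in CDAA (-2.03) in the authors' deposited table. The other members with the nuclear respiratory factor 1 core were Etfb, Mtch2, Acad10 and Iars2, of which Acad10 held 4 matches. Genes with and without the core overlapped in their folds: Cox20 (-1.26) and Ndufa6 (-0.65) held it, and Mpc1 (-1.43) and Mrps14 (-0.87) did not, in the authors' deposited table.

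All 8 complex I subunits in the authors' deposited table were lower in CDAA livers. Of all genes there 42.9% were lower, and of those at 50 FPKM or more 88.4% were. Complex I (NADH:ubiquinone oxidoreductase) has a matrix arm that oxidises NADH and a membrane arm that pumps protons. Ndufv2, an iron-sulfur core subunit of the NADH-oxidising part, was at 87.9 FPKM in CDAA and 169 FPKM in CSAA livers (-0.91 ± 0.27) in the authors' deposited table. The accessory subunits described next surround and stabilise the catalytic core.

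The steepest of the accessory subunits, Ndufb7, was at 82.7 FPKM in CDAA and 205 FPKM in CSAA livers (-1.22 ± 0.38) in the authors' deposited table, and it also had the widest SE. Ndufb3 was the least abundant, at 9.36 FPKM in CDAA and 17.4 FPKM in CSAA livers (-0.90 ± 0.23) in the authors' deposited table. Both, with Ndufb9, belong to the membrane arm. Ndufb9 was at 127 FPKM in CDAA and 211 FPKM in CSAA livers (-0.73 ± 0.11) in the authors' deposited table.

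Ndufa11, a membrane subunit, was at 126 FPKM in CDAA and 206 FPKM in CSAA livers (-0.70 ± 0.17) in the authors' deposited table. Ndufa6 was the most abundant, at 178 FPKM in CDAA and 278 FPKM in CSAA livers (-0.65 ± 0.13; ENSRNOG00000008569; chromosome 7, 123583061 to 123586919, rn6), and Ndufa8, on the intermembrane-space side of the complex, was at 69.4 FPKM in CDAA and 111 FPKM in CSAA livers (-0.64 ± 0.14), in the authors' deposited table. The Ndufa6 protein belongs to the LYR-motif family of small mitochondrial proteins. Across the 8 genes the CSAA level spanned 17.4 to 278 FPKM while the level in CDAA was 42.8% to 64.1% of it by the DESeq2 fold change in the authors' deposited table. The approximate 95% intervals (log2 fold change ± 1.96 SE) overlapped in all 28 pairs of complex I genes, so the order of their folds is not resolved.

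Complex IV (cytochrome c oxidase), which hands electrons to oxygen, had 2 entries. Cox20, a chaperone needed to assemble a mitochondrially encoded catalytic subunit of this complex, was at 5.39 FPKM in CDAA and 13.6 FPKM in CSAA livers (-1.26 ± 0.24, SE) in the authors' deposited table (ENSRNOG00000004553; chromosome 13, 96219852 to 96224023, rn6). Among the 27 lower genes its level was the lowest in both CDAA and CSAA livers in the authors' deposited table. The entry named Cox6b1, for a peripheral subunit, was at 194 FPKM in CDAA and 326 FPKM in CSAA livers (-0.73 ± 0.24) in the authors' deposited table. Its DESeq2 adjusted p, 0.00986, is the highest of all 2462 genes in the authors' deposited table, so it passed by the narrowest margin.

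The identity of the Cox6b1 entry is uncertain. Its locus in the authors' deposited table, chromosome 2 from 211337270 to 211337531 in rn6, spans 262 bases. RefSeq names of assembly GRCr8 hold a pseudogene, Cox6b1-ps1, with Cox6b1 as a synonym, on the same chromosome as that locus, and put the protein-coding Cox6b1 on another. Reads of a gene and of its near-identical copy can be exchanged between them in ways that the sources used here do not state.

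Of ATP synthase, 3 subunits were listed and all were lower in CDAA livers by similar amounts. All 3 exceeded 50 FPKM in CSAA livers, and 88.4% of genes at that level in the authors' deposited table were lower. Atp5c1 (now Atp5f1c), the gamma subunit that turns inside the catalytic head, was at 140.3 FPKM in CDAA and 229.7 FPKM in CSAA livers (-0.70 ± 0.14, SE) in the authors' deposited table. Its Cufflinks locus there spans 184900 bases (chromosome 17, 72209372 to 72394271, rn6). Atp5h (now Atp5pd), subunit d of the peripheral stalk, was at 92.6 FPKM in CDAA and 145 FPKM in CSAA livers (-0.65 ± 0.09), the smallest SE of all 28 genes in the authors' deposited table. Atp5i (now Atp5me), the small membrane subunit e, was at 357 FPKM in CDAA and 585 FPKM in CSAA livers (-0.70 ± 0.19), the highest level of any member in the authors' deposited table. By the fold change the ATP synthase genes were at 61.4% to 63.8% of their CSAA level in the authors' deposited table.

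**Figure D3:**
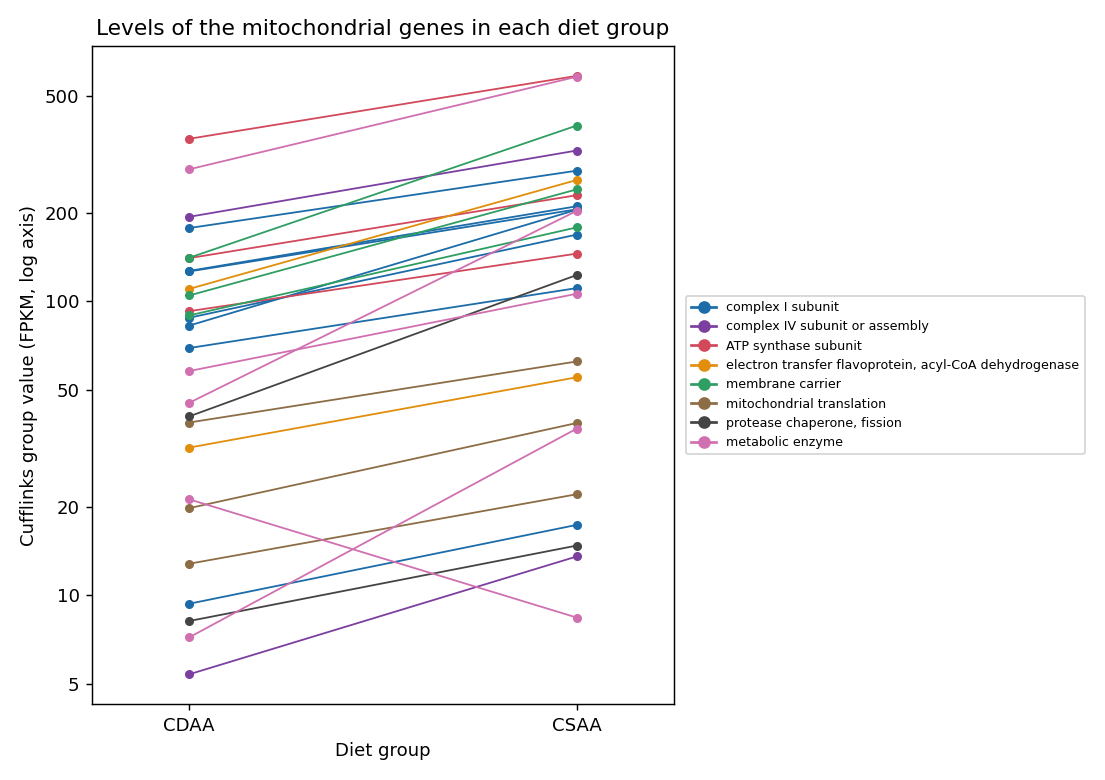
FPKM on a log axis (vertical) of 27 of the mitochondrial genes in the CDAA and the CSAA group (horizontal), 1 line per gene, coloured by function; each point is the authors' value for a whole group. All lines climb towards CSAA except that of Pck2, at 21.2 FPKM in CDAA and 8.40 FPKM in CSAA.

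The symbol pattern left succinate dehydrogenase (complex II) aside, and lists of chain genes written from textbook functions filled this gap. Of its 4 subunits, 3 were in the authors' deposited table and lower in CDAA. The iron-sulfur subunit Sdhb was at 88.0 FPKM in CDAA and 153 FPKM in CSAA livers (-0.79 ± 0.14, SE), and the membrane anchors Sdhc and Sdhd were at -0.87 ± 0.23 and -0.66 ± 0.16 on the log2 scale in the authors' deposited table. Complex III had 0 of 9 subunits in the authors' deposited table, and complex IV had 1 of 17, the Cox6b1 entry of uncertain identity. With that entry counted, 16 of 83 listed subunits over the 5 complexes were in the authors' deposited table. Of 47 assembly factors Cox20 alone was in it. Lower genes made up 42.9% of all genes of the authors' deposited table and 88.4% of those at 50 FPKM or more. Together the chain lists gave 16 lower genes and 1 higher, and these counts are not read as a result about the respiratory chain. The riser was Atpif1 (now Atp5if1), the protein that inhibits ATP synthase when it runs backwards, at 86.2 FPKM in CDAA and 34.0 FPKM in CSAA livers (1.29 ± 0.23) in the authors' deposited table. None of the 13 subunits encoded in mitochondrial DNA was found in the authors' deposited table under the symbols searched. All loci in it lie on chromosomes 1 to 20 or X, so it holds no gene of mitochondrial DNA.

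Electron entry from fatty acids was represented by Etfb and Acad10. Etfb, the beta subunit of the flavoprotein that collects electrons from acyl-CoA dehydrogenases, was at 110.2 FPKM in CDAA and 259 FPKM in CSAA livers (-1.21 ± 0.22, SE) in the authors' deposited table (ENSRNOG00000017851; chromosome 1, 98472744 to 98486976, rn6). Acad10, a member of the acyl-CoA dehydrogenase family, was at 31.8 FPKM in CDAA and 55.2 FPKM in CSAA livers (-0.76 ± 0.21) in the authors' deposited table. Of 25 genes in the list for beta-oxidation and the flavoprotein, 4 were in the authors' deposited table, all lower. All 4 exceeded 50 FPKM in CSAA livers, and 88.4% of genes at that level there were lower. Besides these, Ivd, an acyl-CoA dehydrogenase of leucine breakdown, was at -1.02 ± 0.18, and Hadh, the hydroxyacyl-CoA dehydrogenase of short chains, at -0.90 ± 0.27, on the log2 scale in the authors' deposited table. None of the 4 genes of the ketogenesis list was in the authors' deposited table.

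The mitochondrial pyruvate carrier is a heterodimer that brings pyruvate across the inner membrane, and both partners fell. Mpc1 was at 140.7 FPKM in CDAA and 396 FPKM in CSAA livers (-1.43 ± 0.32, SE; ENSRNOG00000012415; chromosome 1, 53026607 to 53038229, rn6) in the authors' deposited table. Mpc2 was at 105 FPKM in CDAA and 240.4 FPKM in CSAA livers (-1.25 ± 0.17; ENSRNOG00000003150; chromosome 13, 83681321 to 83700213, rn6) in the authors' deposited table. Their ratio in FPKM, Mpc1 over Mpc2, was 1.34 in CDAA and 1.65 in CSAA livers, computed from the authors' deposited table. Mtch2, an outer membrane protein of the carrier family that inserts other proteins into that membrane, was at 89.6 FPKM in CDAA and 179 FPKM in CSAA livers (-0.99 ± 0.24) in the authors' deposited table.

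In the list for the TCA cycle and pyruvate dehydrogenase, carriers included, 12 of 27 genes were in the authors' deposited table, 11 lower and 1 higher in CDAA, where 42.9% of all genes of the authors' deposited table were lower and 88.4% of those at 50 FPKM or more. Pdhb and Dlat, parts of the pyruvate dehydrogenase complex, were at -1.10 ± 0.20 and -1.18 ± 0.35 (SE), and Pc, the pyruvate carboxylase that starts gluconeogenesis, was at -1.18 ± 0.17 on the log2 scale in the authors' deposited table. The pyruvate dehydrogenase kinases, which switch that complex off, moved apart. Pdk4 was at -1.86 ± 0.38, Pdk1 at -1.72 ± 0.36 and Pdk2 at -0.71 ± 0.20, whereas Pdk3 was at 2.08 ± 0.36 on the log2 scale, from a low level of 1.78 FPKM in CDAA and 0.378 FPKM in CSAA livers, in the authors' deposited table. Within the cycle itself Fh, fumarate hydratase, was at -1.04 ± 0.17 in the authors' deposited table, and neither citrate synthase nor the isocitrate dehydrogenases of the list were in it.

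Protein synthesis inside the organelle was represented by 3 genes with small falls. Mrps14, of the small ribosomal subunit, was at 19.8 FPKM in CDAA and 38.6 FPKM in CSAA livers (-0.87 ± 0.16, SE) in the authors' deposited table. Mrpl15, of the large subunit, was at 38.7 FPKM in CDAA and 62.5 FPKM in CSAA livers (-0.68 ± 0.17) in the authors' deposited table. Iars2, which charges mitochondrial isoleucine tRNA, was at 12.8 FPKM in CDAA and 22.1 FPKM in CSAA livers (-0.76 ± 0.16) in the authors' deposited table. These are few of their families: RefSeq names 48 protein-coding Mrpl and 30 Mrps genes, of which 1 each was in the authors' deposited table, and 1 of 17 mitochondrial tRNA synthetases was. Of 16 Timm and 12 Tomm genes, which build the import channels, none was in the authors' deposited table. Of 56 genes with Nduf symbols 8, or 14.3%, were in it, and of all 23148 protein-coding genes that RefSeq names 2325, or 10.04%, were; the differences between these shares were not tested.

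Clpx encodes the unfoldase that feeds proteins to the ClpP protease of the matrix, and it was at 40.6 FPKM in CDAA and 123 FPKM in CSAA livers (-1.60 ± 0.13, SE; ENSRNOG00000030225; chromosome 8, 70789255 to 70843123, rn6) in the authors' deposited table. Its DESeq2 adjusted p of 1.08e-31 and its edgeR false discovery rate of 1.49e-19 are the lowest of the 28 genes in the authors' deposited table. Of a list of 17 matrix chaperones and proteases it was the 1 gene in the authors' deposited table. Mtfp1, an inner membrane protein that promotes fission of the organelle, was at 8.18 FPKM in CDAA and 14.8 FPKM in CSAA livers (-0.86 ± 0.15) in the authors' deposited table.

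The deepest falls among the members were those of Car5a and Gpam, both metabolic enzymes. Car5a, the matrix carbonic anhydrase that supplies bicarbonate to pyruvate carboxylase and to the urea cycle, was at 7.20 FPKM in CDAA and 36.9 FPKM in CSAA livers (-2.24 ± 0.32, SE; ENSRNOG00000019098; chromosome 19, 54731858 to 54761670, rn6) in the authors' deposited table. Gpam, the outer membrane acyltransferase that begins glycerolipid synthesis, was at 45.2 FPKM in CDAA and 203 FPKM in CSAA livers (-2.03 ± 0.38; ENSRNOG00000015124; chromosome 1, 275846818 to 275906686, rn6) in the authors' deposited table. Car5a, Gpam and Clpx were the 3 genes whose approximate 95% interval lay wholly beyond a 2-fold fall; for 5 the interval lay wholly short of it, and for the other 19 lower genes it held the 2-fold value.

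Aldh2, which oxidises acetaldehyde and lipid aldehydes, was the second most abundant member in CSAA, at 281 FPKM in CDAA and 581 FPKM in CSAA livers (-1.03 ± 0.24, SE) in the authors' deposited table. Nadk2, which phosphorylates NAD in the matrix, was at 57.9 FPKM in CDAA and 106 FPKM in CSAA livers (-0.82 ± 0.18) in the authors' deposited table. Aldh2 and Acad10 are neighbours: their loci on chromosome 12 of rn6, at 40466494 to 40498752 and 40417943 to 40460561, are separated by 5932 bases in the authors' deposited table.

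Pck2 was the single riser. It encodes the mitochondrial form of phosphoenolpyruvate carboxykinase, which makes phosphoenolpyruvate from oxaloacetate in the matrix and is known as a target of the stress factor ATF4. It was at 21.2 FPKM in CDAA and 8.40 FPKM in CSAA livers (1.26 ± 0.37, SE; ENSRNOG00000018536; chromosome 15, 34216832 to 34224193, rn6), with an adjusted p of 0.00308 by DESeq2 and a false discovery rate of 0.00347 by edgeR in the authors' deposited table. Its CSAA level was the lowest of all 28 genes in the authors' deposited table.

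The 22 lists of mitochondrial functions held 390 genes, of which 57 were in the authors' deposited table, 46 lower and 11 higher, 20 of them members. Coenzyme Q synthesis, iron-sulfur clusters and heme, antioxidants and mitophagy had 2 lower genes each and no higher one in the authors' deposited table. Among all genes there 42.9% were lower, rising to 62.6% at 5 FPKM or more and 88.4% at 50 FPKM or more. These counts are therefore not read as results about the lists. Adck3 (now Coq8a), a kinase-like protein of coenzyme Q synthesis, was at 35.3 FPKM in CDAA and 189 FPKM in CSAA livers (-2.33 ± 0.29, SE), a lower log2 fold change than that of any member in the authors' deposited table, by less than 1 SE from Car5a. Coq10a, a coenzyme Q-binding protein, was at -1.11 ± 0.18 in the authors' deposited table. Ppox, of heme synthesis, was at -1.50 ± 0.18, Iscu, the scaffold for iron-sulfur clusters that complexes I to III carry, at -1.02 ± 0.22, and Polg2, an accessory subunit of the mitochondrial DNA polymerase, at -1.01 ± 0.28 on the log2 scale in the authors' deposited table.

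Of the 25 genes in the list for mitochondrial apoptosis, 8 were in the authors' deposited table, 7 higher and 1 lower in CDAA. All 8 were under 50 FPKM in both diet groups, and 70.1% of all 1917 such genes of the authors' deposited table were higher, so this count is not read as a result about apoptosis genes. Bok, a BCL2 family member, was at 13.1 FPKM in CDAA and 0.465 FPKM in CSAA livers (4.61 ± 0.38, SE), and Bak1, an effector that permeabilises the outer membrane, at 5.16 FPKM in CDAA and 1.05 FPKM in CSAA livers (2.50 ± 0.32), in the authors' deposited table. Bmf was the faller, at -1.57 ± 0.21 in the authors' deposited table. Ucp2, an inner membrane carrier of the uncoupling family, was at 14.1 FPKM in CDAA and 3.92 FPKM in CSAA livers (1.78 ± 0.25) in the authors' deposited table. Of 12 regulators of mitochondrial biogenesis, the coactivator Ppargc1b was at -0.90 ± 0.29 and Myc at 2.74 ± 0.31, on the log2 scale, and the other 10, Ppargc1a, Esrra, Nrf1 and Gabpa among them, were not in the authors' deposited table.

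**Figure D4:**
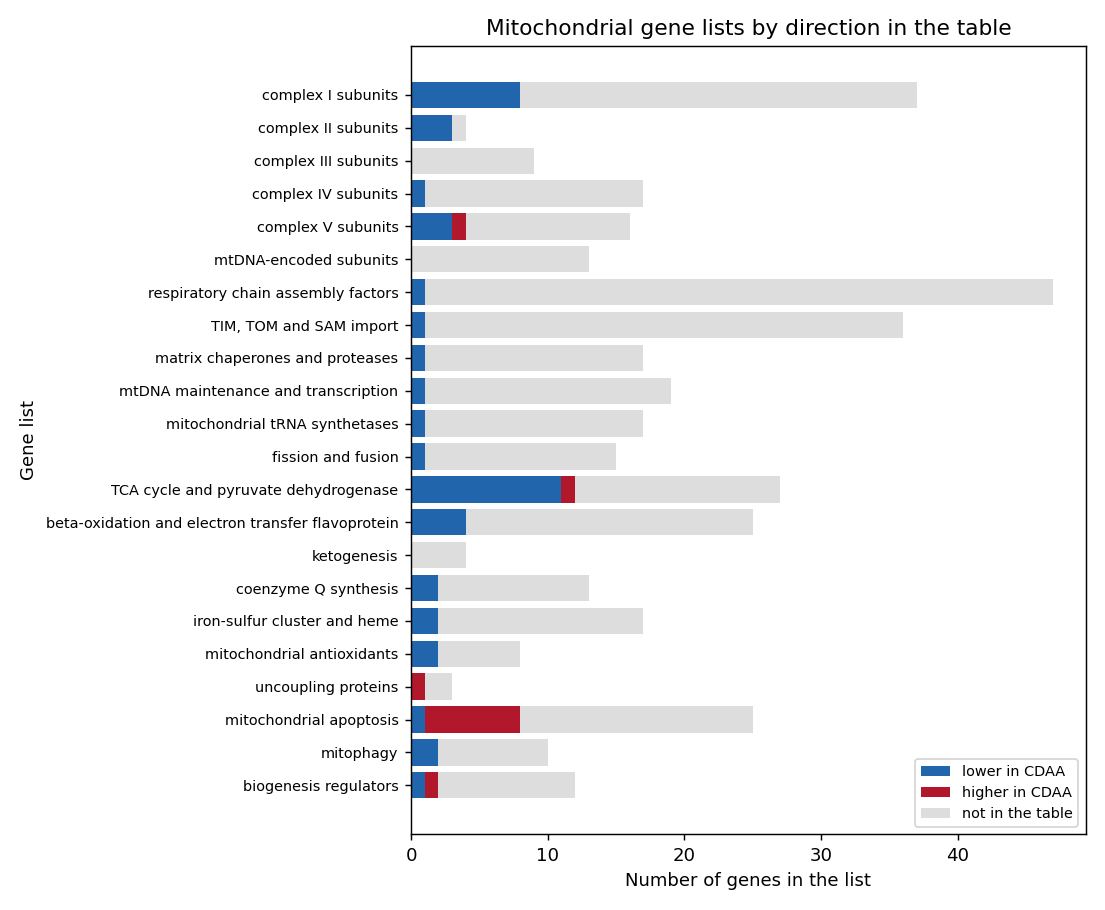
Number of genes (horizontal) of each of the 22 mitochondrial lists (rows) that were lower (blue) or higher (red) in CDAA in the authors' deposited table, or not in it (grey). Lower genes prevail in the lists of complexes I and II and of the TCA cycle with pyruvate dehydrogenase, and 7 of the 8 apoptosis genes found were higher; of all genes in it, 42.9% were lower and 57.1% higher, with lower genes more frequent among abundant ones.

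Markers of several cell types moved with diet as well. Of 10 hepatocyte markers, 4 (Apoa2, Fah, Hnf4a and Ttr) were in the authors' deposited table, all lower, with a summed level of 6963 FPKM in CDAA and 17697 FPKM in CSAA livers; Alb and Cyp2e1 were not in it. Of 6 bile duct markers 5 were higher, summing to 62.9 FPKM in CDAA and 9.85 FPKM in CSAA livers, and of 6 stellate cell and myofibroblast markers 4 were higher, summing to 30.9 FPKM in CDAA and 9.06 FPKM in CSAA livers, in the authors' deposited table. Macrophage markers were higher for 2 of 6 (21.8 FPKM in CDAA and 7.99 FPKM in CSAA livers), endothelial markers were split 1 to 1, and the T and B cell and adipocyte lists had 1 riser each in the authors' deposited table. No marker found was at 0 FPKM in either group. Lower genes made up 42.9% of all genes of the authors' deposited table and 88.4% of those at 50 FPKM or more. Of the genes under 50 FPKM in both diet groups, 70.1% were higher. The directions of these markers are therefore not read as results about cell types. In these bulk samples fewer hepatocytes and less RNA of these nuclear genes per hepatocyte cannot be told apart. The part of cell type shares in the falls was not tested.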

How the data were processed

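RNA of 8 rat livers, 4 on CDAA and 4 on CSAA, was sequenced from TruSeq libraries, per the labels' protocols. Diet and rat number were read from titles. FastQC, TopHat2, Cufflinks, DESeq2, edgeR and rn6 are named by the submitters' processing notes. The versions, read counter, annotation and strand handling behind the authors' values are unstated in the labels and file headers, so reads of overlapping or antisense genes may be mixed. Separate animals are the replicates, as far as the titles say.

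The deposited data are 1 table of the authors' own comparison. Per the file headers, DESeq2 gave the authors a signal (mean normalised count), log2 fold changes and SEs, a score and p-values. From edgeR the authors kept a log2 fold change, a log2 CPM and p-values. From Cufflinks the authors kept 1 value per group, a log2 ratio, a score and p-values. The group values were taken as FPKM, since Cufflinks reports that unit and the authors' header names none. The sign of the authors' DESeq2 log2 fold change was that of CDAA over CSAA in FPKM for 28 members and for 2457 of 2462 genes. No values per rat were used, so no test across rats was run and the p-values printed are the authors'.

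Members were found by the stated rule, put into 8 functional classes by hand from symbol and description, and set beside 22 gene lists. The members, classes, lists and motifs were chosen with earlier results of these data known. Symbols were matched to RefSeq names of GRCr8 directly or through synonyms (28 of 28 members, 2332 of 2462 genes). All members are named except 1, which enters the counts, medians and ranges only and is not reported here. Of each list up to 2 genes that are no members were to be named; the additional ones for complex II, pyruvate metabolism and apoptosis complete a group and were chosen after their values were seen. Intervals are log2 fold change ± 1.96 SE. Counting and motif search were tested on simulated data. Python 3.11.15, pandas 2.3.3, numpy 2.4.6 and matplotlib 3.10.9 were used.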

Additional observations from a re-analysis of the deposited data

How the results depend on the processing

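All 28 members had the same sign in the edgeR and Cufflinks columns of the authors' deposited table, with log2 fold changes within 0.17 (edgeR) and 0.14 (Cufflinks) of DESeq2, and edgeR larger in size for all 28. Passing in all 3 programs was the condition for being in that table and is no sign of stability, and all 3 read the same libraries. Under a 2-fold minimum 9 lower members were left: 1 of complex I, 1 of complex IV, 0 of ATP synthase, 0 of translation, 1 of the flavoprotein class and 1 of the protease and fission class among them. With the symbol pattern alone 17 were lower and 0 higher, and with the description alone 15 were lower. No member shared a Cufflinks locus with another gene of the table, so leaving such loci out changed no count of members, and neither did a minimum of 5 FPKM. Chosen after seeing the data, a minimum of 50 FPKM raised the share of lower genes in the whole table to 88.4%, leaving out Cox6b1 gave 26 lower members, and widening the chain to the lists gave 16 lower genes against 13. On the forward strand alone the ETS core was in 1, the YY1 core in 2 and the ATF4 element in 1 member promoter; the other motifs moved by no more than 1.5 times. No paired analysis was possible because the table holds no values per rat, and for the same reason no rat could be left out. Depth per rat is unknown, so no counting interval is given.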
